A study of Mus musculus with 300 samples.

Results

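Lin28b, Igf2bp1 and Mycn are 3 genes of the fetal growth program, and their rows were read from a single-cell expression matrix of 13737 features in single cells of the mouse embryonic thymus. They are taken by name, as 3 of these 13737 features, and were picked with earlier results of these data known. The cells were sorted by the authors as early thymic progenitors (ETPs), the first T-cell precursors to seed the thymus, from embryos of the "5x polychromILC" strain at stage E15.5. Every cell carries the same reporter strain, tissue and stage, and the labels name no treatment, no adult tissue and no second group, so no value here sets fetal against adult cells. The labels give 4 mouse ids, and the matrix holds 67 cells labelled 1A, 69 labelled 1B, 64 labelled 2A and 61 labelled 2B. The labels leave it unsaid whether an id stands for 1 embryo or several, so spreads between ids may be partly technical.

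LIN28B is an RNA-binding protein that blocks the maturation of let-7 microRNAs, and in mouse it directs fetal-type blood and lymphocyte development. Mature let-7 represses mRNAs that carry matches to its seed, among them those of Lin28b itself and of Igf2bp1, so the proteins and the microRNAs restrain each other. IGF2BP1 is an mRNA-binding protein of fetal tissues and tumours that shields transcripts such as that of Myc from decay. MYCN is a transcription factor of the MYC family that pairs with MAX and drives growth and ribosome production in progenitors.

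The let-7 sequences are shown because they link Lin28b and Igf2bp1. The let-7 family shares its seed, bases 2 to 8 counted from the 5′ end and printed in capitals, and 10 of 11 mouse names listed by RefSeq (GRCm38.p6) carry the same letters. Those of let-7a and 3 relatives are printed with 1 genome position each.
let-7a-5p, chr13:48538239-48538260, minus strand: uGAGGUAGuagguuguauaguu
let-7b-5p, chr15:85707325-85707346, plus strand: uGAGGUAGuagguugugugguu
let-7g-5p, chr9:106178846-106178867, plus strand: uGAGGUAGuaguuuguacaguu
miR-98-5p, chrX:151913229-151913250, plus strand: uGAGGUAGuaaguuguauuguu

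The reverse complement of the seed, CTACCTC, was searched on the transcript strand of the longest annotated 3′ UTR of each gene (GENCODE vM21, GRCm38). The 3′ UTR of Lin28b, 4445 bases long, holds 4 matches, printed 5′ to 3′ on the minus strand with the match in capitals.
Lin28b, chr10:45381022-45381043: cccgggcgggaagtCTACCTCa
Lin28b, chr10:45378648-45378669: atacttgttagtaaCTACCTCt
Lin28b, chr10:45378476-45378497: tttacagcacatggCTACCTCc
Lin28b, chr10:45377060-45377081: aatgatggcaccgaCTACCTCt

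The 3′ UTR of Igf2bp1, 6337 bases long and also read on the minus strand, holds 4 matches as well.
Igf2bp1, chr11:95961778-95961799: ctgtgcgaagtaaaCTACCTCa
Igf2bp1, chr11:95959357-95959378: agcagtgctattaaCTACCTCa
Igf2bp1, chr11:95958763-95958784: tataaatggatgaaCTACCTCa
Igf2bp1, chr11:95958140-95958161: cttttggttttaatCTACCTCt

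Over all 20870 genes with an annotated 3′ UTR, 8.99% hold a match. Among the 1259 genes, Lin28b included, whose 3′ UTR is within 20% of the length of that of Lin28b, 23.9% hold 1 or more matches. A share of 0.238% of them hold 4 or more. Among the 561 genes near the length of that of Igf2bp1, itself included, 33.7% hold 1 or more and 0.357% hold 4 or more. These letters are not in the 913 bases of the 3′ UTR of Mycn. A match is a description of letters, and the microRNAs themselves were not measured.

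All 3 genes are protein-coding and lie on the minus strand of GRCm38. Lin28b (ENSMUSG00000063804) spans chromosome 10 from 45376620 to 45486395 and Mycn (ENSMUSG00000037169) spans chromosome 12 from 12936093 to 12941914, and no other annotated gene overlaps either. Igf2bp1 (ENSMUSG00000013415) spans chromosome 11 from 95957163 to 96005940. The spans of the antisense gene Gm29202 and the microRNA gene Mir3063 overlap it. Libraries of this kind do not keep the strand, so reads from any sequence that Gm29202 and Igf2bp1 share cannot be told apart. Whether their exons overlap was not tested.

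Values are log2 levels above the level at no reads. In the matrix each gene has a repeated lowest value inside each of 4 sets of cells, which share at least 14.2% of their values within a set and 0% between sets. That repeated value was taken as the level at no reads. Detection means any value above it, and a clear level means at least 3.46 log2 units above it (an 11-fold distance). Levels are not compared between genes, since it is not given whether they were scaled by length.

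The 4 sets follow unbroken runs of wells through the plates and not the mouse labels. Set 2 is nearly all mouse 1B (64 of 65 cells) and set 3 nearly all mouse 1A (61 of 67), whereas mice 2A and 2B share set 1 (35 and 36 cells) and set 4 (26 and 25 cells). Labels and wells do not line up in places. In the wells of plate AF1 labelled 1B, 1 cell (well 9) is labelled 1A, and among those of AF2 labelled 1A, 3 cells (wells 7 to 9) are labelled 2A. Set 3 opens with 3 cells labelled 1B and set 4 with 5 labelled 1A. Whether mouse labels are shifted against the wells was not tested, and every value per mouse rests on the labels as given. For mice 1A and 1B the animal and the set cannot be told apart, so results are also given by set. Depth is known only as detected genes per cell, with a median of 7782 (5073 to 10337) and medians from 7518 in mouse 1A to 8243 in mouse 2B. Kit was detected in 91.01 ± 5.70% of cells, Cd34 in 94.6 ± 3.12% and Cd3e, a component of the T-cell receptor complex, in 6.66 ± 3.80% (mean ± SD of 4 mice).

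Grouping the cells without the 3 genes gave 8 clusters. Cluster 1 was progenitor-like (72 cells; led by Pdgfrb, Adgrg1 and Hbp1), cluster 2 was led by S phase genes such as Rrm2 and Ung (65 cells) and cluster 3 was cycling (47 cells; Plk1, Aurka and Ube2c). A further 59 cells were NK/ILC-like (23 cells; Il2rb, Ctsw, Klrk1), dendritic-like (19; Siglech, Pld4, Irf8), mast/basophil-like (9; Hdc, Mcpt8) or macrophage-like (8; Adgre1, Csf1r). The remaining 18 cells, 10 of them from mouse 2B, had no marker among their leading genes and stayed unnamed. The first 3 clusters are called the progenitor and cycling clusters (43 cells in mouse 1A, 53 in 1B and 44 each in 2A and 2B) and the 59 cells the other cell types. All 23 NK/ILC-like cells sat in the first 8 wells of a set, so cell type, well position and set move together there.

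Mycn transcripts were found in nearly every cell of the progenitor and cycling clusters, and the gene was the most widely detected of the 3. Mycn was detected in 60 of 67 cells of mouse 1A, 60 of 69 in 1B, 57 of 64 in 2A and 57 of 61 in 2B. The shares lie between 86.96 and 93.4% and average 89.8 ± 2.70% (SD, n = 4 mice). The mean Mycn level was 5.82, 6.15, 6.14 and 6.85 log2 in mice 1A, 1B, 2A and 2B. Among the cells with Mycn the level ran from 0.63 through a median of 7.96 to 10.86 log2.

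Igf2bp1 was detected in most cells of 3 mice and in about every other cell of mouse 1B. It was found in 49 of 67 cells of mouse 1A (73.1%; exact Clopper-Pearson 95% interval 60.9 to 83.2%), 36 of 69 of 1B (52.2%; 39.8 to 64.4%), 57 of 64 of 2A (89.1%; 78.8 to 95.5%) and 55 of 61 of 2B (90.2%; 79.8 to 96.3%). Intervals cover counting error only. The interval of mouse 1B does not overlap those of 2A and 2B, and the mean was 76.1 ± 17.8% (SD, n = 4). The range between mice, 37.99 percentage points, is past 25 points, as it is for 6.4% of the 10755 genes tested.

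The cause of the low share of Igf2bp1 in mouse 1B was not tested. Its cells had a median of 7544 detected genes, against 7518 in 1A, 7787 in 2A and 8243 in 2B. In mouse 1B, 53 of 69 cells lay in the progenitor and cycling clusters, against 43 of 67 in 1A, 44 of 64 in 2A and 44 of 61 in 2B. Within those clusters Igf2bp1 was detected in 39 of 43 cells of mouse 1A, 29 of 53 in 1B, 43 of 44 in 2A and 42 of 44 in 2B, or 90.7, 54.7, 97.7 and 95.5%. Mice 2A and 2B, which share their sets, had 22 of 22 and 23 of 24 such cells with Igf2bp1 in set 1, and 19 of 20 each in set 4. In mouse 1B, 51 of the 53 cells belong to set 2, so animal and set cannot be told apart. The mean Igf2bp1 level was 3.65, 2.38, 5.36 and 5.57 log2 in mice 1A, 1B, 2A and 2B.

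The level of Igf2bp1, unlike its detection, depends on the alignment to the level at no reads. That level lies at -0.43, 1.14, 0.52 and -1.46 in the deposited values of sets 1 to 4. The spread between mice is 1.51 log2 (SD) with alignment and 0.57 log2 in the deposited values. Among the cells of mouse 2A with Igf2bp1 the mean level was 7.14 log2 in the first sequencing pool and 5.08 log2 in the second, while 89.7% of 29 and 88.6% of 35 cells had it.

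Lin28b was the least often detected of the 3 genes. It was found in 35 of 67 cells of mouse 1A, 28 of 69 in 1B, 36 of 64 in 2A and 38 of 61 in 2B, or 52.2, 40.6, 56.2 and 62.3%, with a mean of 52.8 ± 9.16% (SD, n = 4). The interval of mouse 1B (28.9 to 53.1%) overlaps that of 2B (48.96 to 74.4%), and the range between mice, 21.7 points, is not past 25 points. The mean level was 2.53, 2.07, 2.39 and 2.88 log2 in mice 1A, 1B, 2A and 2B. Among the cells with Lin28b the level ran from 0.82 through a median of 5.16 to 8.55 log2. By set, in the order 1 to 4, Lin28b was detected in 64.4, 41.5, 53.7 and 48.2% of cells, Igf2bp1 in 87.7, 49.2, 73.1 and 92.9%, and Mycn in 86.3, 87.7, 89.6 and 96.4%, so set 2, like mouse 1B, was lowest for Lin28b and Igf2bp1. A clear level was reached in 35.8 ± 5.99% of cells for Lin28b, 58.2 ± 20.0% for Igf2bp1 and 72.1 ± 5.51% for Mycn (mean ± SD of 4 mice).

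**Figure D1:**
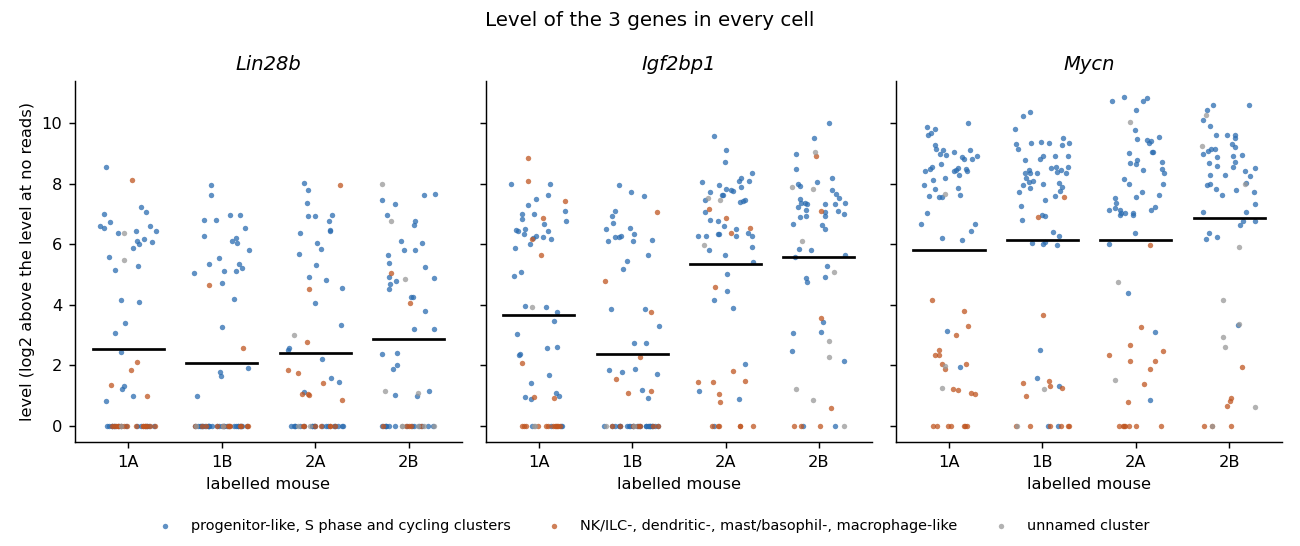
Level of Lin28b, Igf2bp1 and Mycn (log2 above the level at no reads) in each cell by labelled mouse, with 1 point per cell spread sideways at random, colours for the cluster class and a black line at the mean of each mouse. Mycn lies at a median of 8.37 log2 in the progenitor and cycling clusters and at 1.09 log2 in the other cell types, while cells without Lin28b are found in both.

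Relatives of the 3 genes were present as well. Lin28a, Igf2, H19 and Trim71 have no row in the matrix and were not analysed here. Myc was detected in 95.1 ± 2.74% of cells per mouse, Mycl in 8.20 ± 5.95%, and their partner Max in 66.4 ± 9.87%. Igf2bp2 was detected in 36.6 ± 10.1%, and Igf2bp3, which lacks a level at no reads in some sets, in 98.5 ± 1.76% of cells, counting every cell of those sets. Hmga2, a chromatin protein that let-7 represses, was detected in 47.6 ± 7.23%, and Arid3a, a factor of fetal B lymphopoiesis downstream of Lin28b in mouse, in 73.8 ± 10.1%. Among enzymes that act on let-7 precursors, the uridylyltransferase Tut4 was detected in 77.8 ± 5.93% and the exonuclease Dis3l2 in 61.1 ± 6.85% (mean ± SD of 4 mice each).

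The 3 genes were all higher in the progenitor and cycling clusters than in the other cell types, in each of the 4 mice. Mycn averaged 8.08, 7.52, 7.99 and 8.33 log2 in the progenitor and cycling clusters of mice 1A, 1B, 2A and 2B, against 1.52, 1.76, 1.47 and 0.62 log2 in their other cell types. The difference was 6.64 ± 0.81 log2 (SD, n = 4 mice), and no mouse mean of the first overlaps one of the second. A clear level of Mycn was reached in 94.6% of cells (exact 95% interval 90.2 to 97.4%) of the progenitor and cycling clusters and in 6 of 59 other cells (10.2%; 3.82 to 20.8%). Only 0.0186% of the 10755 genes tested had a larger mean difference in this direction.

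Igf2bp1 averaged 4.51, 2.69, 6.42 and 6.29 log2 in the progenitor and cycling clusters of mice 1A, 1B, 2A and 2B, against 2.24, 1.55, 2.33 and 2.88 log2 in the other cell types. The difference was 2.73 ± 1.30 log2, from 1.14 in mouse 1B to 4.09 in mouse 2A, and the level of mouse 1B in the first lies below that of mouse 2B in the second. In mouse 1A the 5 NK/ILC-like cells averaged 6.25 log2, above its progenitor and cycling clusters. Those 5 cells lie in set 4 and the 43 progenitor and cycling cells of 1A in set 3, so cell type and set cannot be told apart there. In mice 1B and 2A the NK/ILC-like cells averaged 1.07 and 2.73 log2. Lin28b averaged 3.33, 2.55, 2.86 and 3.29 log2 in the progenitor and cycling clusters, against 0.68, 0.52, 1.42 and 1.30 log2 in the other cell types. The Lin28b difference was 2.03 ± 0.49 log2, and the 4 means of each class do not overlap. In mouse 2A the share of cells with any Lin28b was no higher in the first class, 56.8% against 58.8%.

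These class differences are a description, because the clusters were made from genes that vary with the 3. A mean difference of at least 1 log2 unit above 0 in all 4 mice was met by 34.4% of the 10755 genes tested, and the count of 3 of 3 members is read against that share. Depth moved with the classes, with a median of 8071 detected genes in the progenitor and cycling clusters and 6593 in the other cell types. After adjustment for detected genes inside each mouse, the difference was 3.80 ± 2.01 log2 for Mycn, 1.30 ± 1.49 log2 for Igf2bp1 and 0.63 ± 0.58 log2 for Lin28b, so that of Igf2bp1 was within its spread between mice. With the 4 sets as units it was 6.48 ± 0.65, 2.38 ± 1.44 and 2.07 ± 0.68 log2.

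Within the other cell types the genes were spread unevenly, on few cells. In the NK/ILC-like cluster a clear level was reached in 4 of 23 cells for Lin28b, 9 for Igf2bp1 and 2 for Mycn. In the dendritic-like cluster it was reached in 0 of 19 cells for Lin28b, which allows a share of up to 15.8% counted as 3 cells of the total (exact 95% upper limit 17.6%), in 4 for Igf2bp1 and in 3 for Mycn. The mast/basophil-like cluster had 0 of 9 cells at a clear level for Lin28b and Igf2bp1, which allows up to 33.3% (exact limit 33.6%), and 1 for Mycn. Of the 8 macrophage-like cells, 2 had a clear level of Lin28b, 4 of Igf2bp1 and 0 of Mycn, which allows up to 37.5% (exact limit 36.9%).

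**Figure D2:**
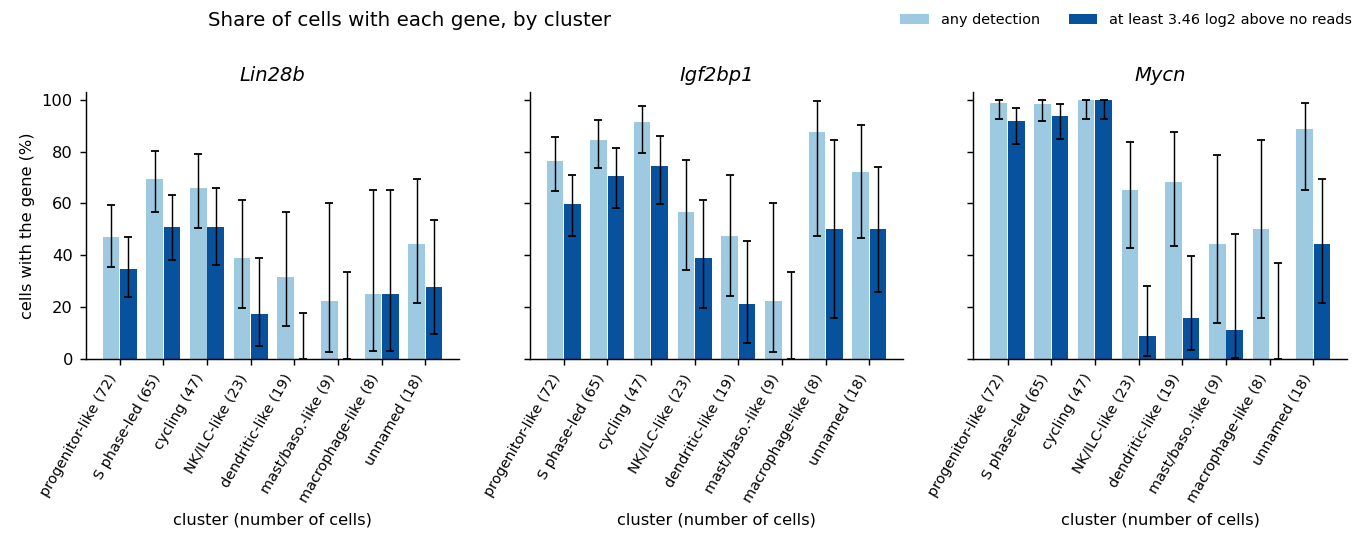
Share of cells (%) with any detection (light bars) and with at least 3.46 log2 above the level at no reads (dark bars) in each of 8 clusters, with exact 95% intervals as error bars and the number of cells in brackets. Mycn reaches a clear level in 91.7 to 100% of cells in the progenitor-like, S phase-led and cycling clusters and in 0 to 15.8% in the 4 clusters of other cell types.

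Within the progenitor and cycling clusters, the cells of the S phase-led and cycling clusters were set against the 72 progenitor-like cells. Lin28b was detected in 67.9 ± 13.7% of cells of the S phase-led and cycling clusters and in 46.7 ± 11.3% of the progenitor-like cluster (mean ± SD of 4 mice). It was higher in the first in all 4 mice by share, from 54.5 to 86.7% against 35.7 to 61.1%. The level difference of Lin28b was 0.87 ± 1.20 log2 and ran from -0.12 in mouse 1A to 2.61 in mouse 2B, so it was within its spread. That of Igf2bp1 was 0.91 ± 0.59 log2, between 0.23 and 1.44 and above 0 in 4 of 4 mice, and that of Mycn was -0.11 ± 0.35 log2. The difference of Igf2bp1 is 1.13 log2 without mouse 1A and 1.01 log2 without 2A, and that of Lin28b is 0.29 log2 without 2B. Over all 4 mice none of the 3 is past 1 log2 unit, the mark that 8.72% of the genes tested passed upwards without adjustment. Depth again differed, with medians of 8256.5 and 7641.5 detected genes. Adjusted for detected genes inside each mouse, the difference was 0.34 ± 1.33 log2 for Lin28b and 0.41 ± 0.59 log2 for Igf2bp1. For Mycn it was -1.14 ± 0.46 log2, lower in the S phase-led and cycling clusters. No share of all genes is given for an adjusted or a downward difference, so the value for Mycn is not read as a call. The Mycn difference without adjustment was 0.06 log2 without mouse 2B and 0.02 log2 with the sets as units.

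Transcripts of the 3 genes overlapped in many cells. All 3 were detected in 39.1% of cells, Igf2bp1 and Mycn without Lin28b in 31.03%, and none of the 3 in 10 cells. In the progenitor and cycling clusters 49.5% of cells held all 3, 33.2% held Igf2bp1 and Mycn without Lin28b, and 9.78% held Lin28b and Mycn without Igf2bp1. Among the 59 other cells, 6 held all 3 and 8 held none.

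Joint detection was set against the product of the separate shares in each mouse. Lin28b and Igf2bp1 were found together in 41.98% of cells per mouse, against 41.4% for the product of their shares, an excess of 0.57 ± 3.37 percentage points that was positive in 2 of 4 mice and is -0.93 points without mouse 1A. Lin28b and Mycn had an excess of 1.77 ± 1.79 points (3 of 4 mice positive) and Igf2bp1 and Mycn of 2.17 ± 1.91 points (4 of 4). With the cells split into 3 groups by detected genes, these were 0.22 ± 1.54 (1 of 4) and 0.98 ± 1.14 points (3 of 4). Lin28b and Igf2bp1 then had -1.48 ± 2.95 points (1 of 4). Within the progenitor and cycling clusters Mycn was detected in 100% of cells of mice 1A, 2A and 2B and in 96.2% of 1B. An excess with Mycn is therefore fixed at or near 0 there and says nothing about joint detection. In these clusters, any detection gave -0.0089 ± 0.0178 points for Lin28b and Mycn (0 of 4). It gave 0.0445 ± 0.0890 points for Igf2bp1 and Mycn (1 of 4) and -0.81 ± 1.58 points for Lin28b and Igf2bp1 (1 of 4). At a clear level the excess of Igf2bp1 and Mycn was 6.38 ± 4.47 points in all cells and 1.51 ± 1.94 points within the progenitor and cycling clusters. That of Lin28b and Mycn was 4.81 ± 2.13 and 0.16 ± 0.67 points. With Mycn at a clear level in 94.6% of cells of these clusters, little room is left for an excess there as well.

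Rank correlations over cells, computed inside each mouse given the number of detected genes and the set, were low. They describe 61 to 69 cells per mouse that share 1 or 2 plates and a depth range, and no p-value was computed. Between Lin28b and Igf2bp1 rho was 0.123, -0.369, -0.0971 and 0.0535 for mice 1A, 1B, 2A and 2B, with a mean of -0.0765 ± 0.218, and without mouse 1B the mean is 0.0267. Between Lin28b and Mycn the mean was 0.0503 ± 0.0867. Between Igf2bp1 and Mycn rho was 0.239, -0.0243, 0.357 and 0.157, with a mean of 0.185 ± 0.160, positive in 3 of 4 mice. For each pair the spread between mice is near or above the mean, and within the progenitor and cycling clusters the means were -0.174, -0.0146 and 0.1251.

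**Figure D3:**
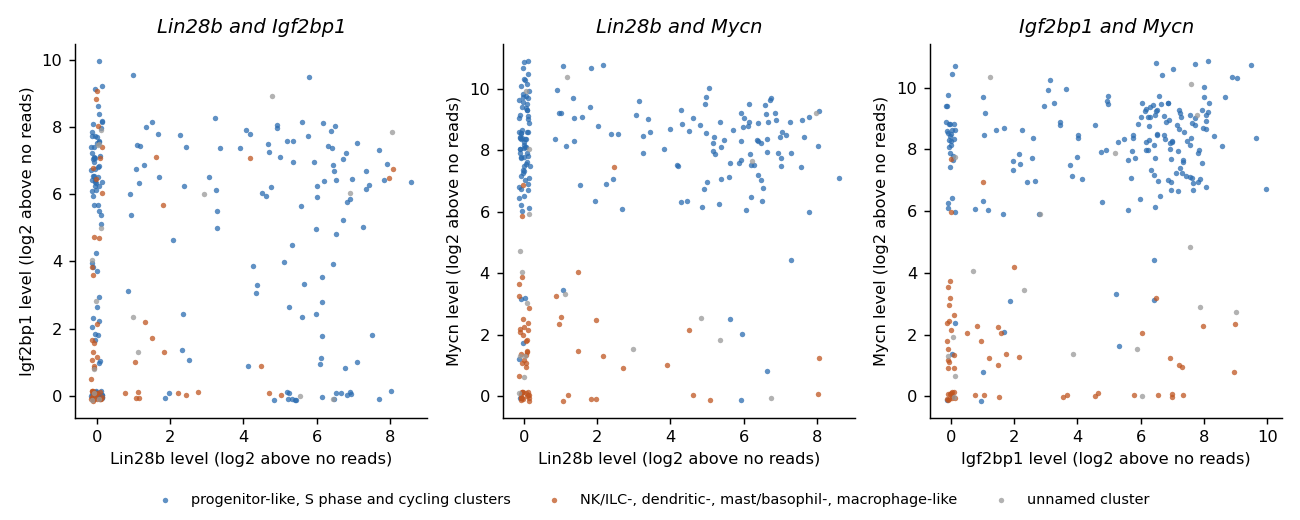
Levels of each pair of the 3 genes (log2 above the level at no reads) with 1 point per cell, a small random shift on both axes and colours for the cluster class. Mycn is at a clear level in 94.6% of cells of the progenitor and cycling clusters, and these cells spread over the whole range of Lin28b and Igf2bp1.

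Every other gene was then set against each of the 3. A gene counted as a partner if its mean rho over the mice was at least 0.25, or at most -0.25, with 1 sign in 4 of 4 mice. Of 10747 genes tested, 61 (0.568%) were positive and 20 (0.186%) negative partners of Mycn, 6 (0.0558%) were positive and 2 (0.0186%) negative partners of Igf2bp1, and 0 (0% in both directions) were partners of Lin28b. No gene was a partner of more than 1 of the 3. With a mouse left out, which asks for 1 sign in 3 mice only, the positive partners of Mycn were 0.930% of genes without 1A, 1.28% without 1B, 1.09% without 2A and 0.465% without 2B. Those of Igf2bp1 numbered 12, 31, 14 and 11 genes without 1A, 1B, 2A and 2B, and those of Lin28b 2, 8, 9 and 3.

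Kit, Kcnn4 and Pdgfrb, 3 genes of the progenitor list, were among the 10 genes with the highest mean rho with Mycn. The 10 were Slc35d3, a nucleotide sugar transporter family member (mean rho 0.426 ± 0.166), the stem cell factor receptor Kit (0.403 ± 0.116), the protease inhibitor Serpinb1a, the potassium channel Kcnn4, the growth factor receptor Pdgfrb, the nucleoside diphosphate kinase Nme4, Ctla2a, Cdca7, a target of MYC, the homeobox gene Hoxa7 and the transcription factor Sox4 (0.322 ± 0.0441). Kit had rho of 0.375, 0.273, 0.390 and 0.554 with Mycn in mice 1A, 1B, 2A and 2B. Kcnn4 had 0.404, 0.252, 0.382 and 0.406, and Pdgfrb had 0.359, 0.338, 0.297 and 0.449.

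Among the lowest partners of Mycn were the Fc receptor chain Fcer1g (-0.304 ± 0.162), the adhesion receptor Adgre5 (-0.297 ± 0.169), AB124611 (-0.282 ± 0.0662) and the integrin chain Itgb2 (-0.279 ± 0.122). Fcer1g averaged 4.29 log2 in the progenitor and cycling clusters and 9.30 log2 in the other cell types, and Kit 8.49 and 2.18 log2.

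The number of Mycn partners was lower once the other cell types were left out. Of the 61 positive partners, 59 were higher in the progenitor and cycling clusters than in the other cell types by the rule above, which 34.4% of all genes met, and 17 of the 20 negative partners were lower, as were 4.25% of all genes. Without the 59 other cells, 5 of the 81 partners passed again, among them Emid1, Hoxa7, Xpc and Zpr1, and the counts were 18 positive and 4 negative. All 61 positive partners kept a mean rho above 0, with a median of 0.169, against 0.272 in all cells. Of the 20 negative partners 19 stayed below 0, with a median of -0.117, and Atp1b1, a sodium pump subunit, was at 0.00173 ± 0.0631, against -0.258 in all cells. Kit had a mean rho of 0.228 ± 0.178 in the remaining cells, Slc35d3 0.247 ± 0.175, Pdgfrb 0.0967 ± 0.185 and Sox4 0.0492 ± 0.171. Chosen after these values were seen, the phospholipase Plcb2 was at 0.285 ± 0.139 in the remaining cells and the cytokine receptor Flt3 at 0.253 ± 0.167.

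**Figure D4:**
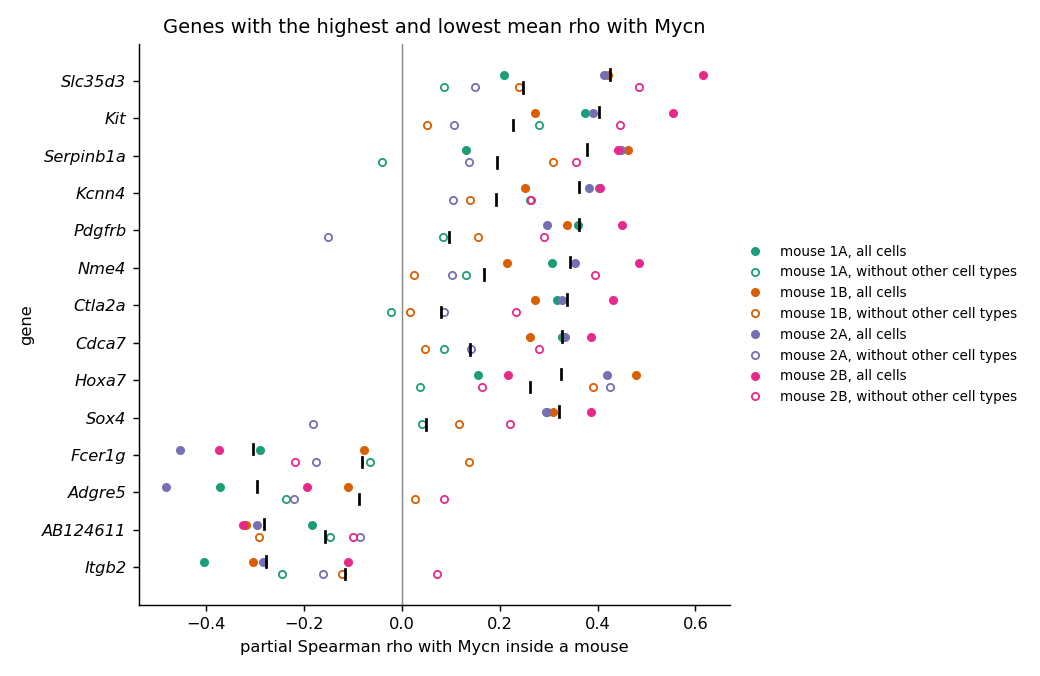
Partial Spearman rho with Mycn inside each labelled mouse for the 10 genes with the highest mean rho and 4 of those with the lowest, in all cells (filled points) and in the cells without other cell types (open points), with a black line at the mean over mice. The mean of Kit is 0.403 in all cells and 0.228 without the other cell types, and that of Sox4 is 0.322 and 0.0492.

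Igf2bp1 had 8 partners, none of which was shared with Mycn. The 6 positive ones were Tmem87a (0.299 ± 0.0678), the Integrator subunit Ints7 (0.270 ± 0.108), Gm7666, the tRNA acetylation adaptor Thumpd1, Pnkd and the deubiquitinase Usp10 (0.251 ± 0.0922). Tmem87a had rho of 0.2496, 0.398, 0.281 and 0.263 for mice 1A, 1B, 2A and 2B. Just below the mark were Tsr2, a chaperone of a ribosomal protein, Afap1l1, the purine synthesis enzyme Adsl and the ubiquitin ligase Rnf138, at 0.230 to 0.241. The 5 lowest were the heparan sulfate proteoglycan Gpc1 (-0.278 ± 0.0524), the corepressor Tle4 (-0.263 ± 0.124), Olfr1307, the myosin Myo1d and Upb1, an enzyme of pyrimidine breakdown, the last 3 between -0.246 and -0.242. Without the other cell types 3 of the 8 partners passed again, Tmem87a, Pnkd and Gpc1.

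Lin28b had no partner at the mark, and its rhos stayed between -0.2496 and 0.239 over all genes tested. The highest was the lactate transporter Slc16a1 (0.239 ± 0.138), at 0.384, 0.0499, 0.2495 and 0.261 for mice 1A, 1B, 2A and 2B. It was followed at 0.204 to 0.231 by Gm13803, Parp6, Gm10169, Nlgn1, 1110008L16Rik, Tmem177, Timm10, Tamm41 and Tmem237, of which Timm10 and Tamm41 encode proteins of the mitochondrial inner membrane system. The lowest were Gpr137b-ps (-0.2496 ± 0.0526), its near-identical parent Gpr137b (-0.235 ± 0.0530), Inpp5e (-0.230 ± 0.131), the lysosomal galactosidase Gla (-0.227 ± 0.0611) and the cytokine signalling inhibitor Socs2 (-0.216 ± 0.149). Reads of Gpr137b and its pseudogene could be split between them, so these values are uncertain. At a mark of 0.2 there were 15 positive and 11 negative genes.

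Since 0% of all genes tested reached the mark with Lin28b, the let-7 pathway could not differ from them by that count. Of 33 listed genes, 26 are in the matrix and 20 could be tested. With Lin28b 0 of 20 were partners and the median rho was 0.0124, against 0.00156 over all genes. With Igf2bp1 it was 0 of 20 with 0.0259, against 0.0558% positive partners and a median of 0.00241 over all genes. The mean rho of Lin28b was 0.0127 ± 0.0431 with Tut4, 0.0425 ± 0.122 with Dis3l2, -0.0852 ± 0.0543 with Dicer1, the enzyme that cuts let-7 precursors, and 0.0122 ± 0.104 with Arid3a. With Mycn 3 of 20 were positive partners, as were 0.568% of all genes. Among the 3 were the other family member Myc (0.288 ± 0.122) and Hmga2 (0.253 ± 0.0935). The median with Mycn was 0.0823, against 0.0139 over all genes. Hmga2 had a mean rho of 0.185 ± 0.126 with Igf2bp1 and 0.0520 ± 0.103 with Lin28b.

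Within the Myc network, 9 of 11 genes could be tested. Myc, a growth regulator of the same family, was the only partner of Mycn among the 9, and the repressive network member Mga was at 0.233 ± 0.0384 with Mycn. The dimerization partner Max was at 0.0260 ± 0.173 and the antagonist Mxd1 at -0.109 ± 0.146. With Lin28b and Igf2bp1 0 of 9 were partners, and over all genes 0 and 0.0558% were positive ones. The lowest value was -0.170 ± 0.0329, of Mxd3 with Lin28b. Of 22 listed genes of ribosome and nucleotide synthesis, 7 could be tested, since the others had reads in nearly every cell of some set. All 7 had a mean rho above 0 with each of the 3 genes and 0 were partners, with medians of 0.192 (Mycn), 0.120 (Igf2bp1) and 0.0904 (Lin28b). Over all genes tested, 56.4% were above 0 with Mycn, 51.2% with Igf2bp1 and 50.87% with Lin28b. In the deposited values, where all 22 could be tested, 6 were positive partners of Mycn, as were 1.15% of all genes, and 0 of Igf2bp1 or Lin28b. Their medians there were 0.186 (Mycn), 0.148 (Igf2bp1) and 0.0670 (Lin28b).

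For mRNAs and proteins tied to IGF2BP1, 5 of 12 genes could be tested and 0 were partners of Igf2bp1, against 0.0558% of all genes as positive ones. With Mycn 2 of the 5, Myc and Hmga2, were positive partners, as were 0.568% of all genes. Myc, a known client mRNA, had a mean rho of 0.0412 ± 0.0765 with Igf2bp1, and Cd44, another, -0.0247 ± 0.189. Its relative Igf2bp2 was at 0.00666 ± 0.0896 with it and, in the deposited values, Igf2bp3 at 0.103 ± 0.111. Cd44 had 0.189 ± 0.103 with Lin28b.

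By count, though not by share, progenitor genes were the list with the most partners, all of them with Mycn. The list was chosen with earlier results of these data known, so its count is a description. Kit, Kcnn4 and Pdgfrb are also among the markers that named the progenitor-like cluster. Of 22 listed progenitor genes, 16 could be tested, and 6 were partners of Mycn (Kit, Kcnn4, Pdgfrb, Dnmt3b at 0.312 ± 0.0699, Erg at 0.272 ± 0.0891 and Lyl1 at 0.270 ± 0.1496), as were 0.568% of all genes. The median with Mycn was 0.185, against 0.0139 over all genes. With Igf2bp1 and with Lin28b 0 of 16 were partners, with medians of 0.0822 and 0.00709, and over all genes 0.0558 and 0% were positive ones. Cebpa, a myeloid factor in the same list, was at -0.223 ± 0.116 with Mycn. Cd34, which lacks a level at no reads in a set, had 0.433 ± 0.193 with Mycn in the deposited values. Without the other cell types 1 of 15 progenitor genes was a partner of Mycn, as were 0.168% of all genes, and all 15 were above 0, with a median of 0.141, against 0.0129 over all genes. These differences between the 3 genes were not tested.

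Genes of G2 and M phase, 23 of which could be tested, had a median rho of -0.132 with Mycn, with 21 of 23 below 0, and 0 were partners. Over all genes 43.6% were below 0 with Mycn and the median was 0.0139. The medians with Igf2bp1 and Lin28b were 0.0139 and -0.0147. These rhos are given the number of detected genes, whose median was 8391 in the cycling cluster and 7641.5 in the progenitor-like cluster. Without that adjustment, Mycn averaged 7.99 ± 0.79 log2 in the cycling and 8.06 ± 0.49 log2 in the progenitor-like cluster (SD, n = 4 mice). In mice 1A, 1B, 2A and 2B it was 9.06, 7.87, 7.16 and 7.87 log2 in the cycling cluster. In the progenitor-like cluster it was 8.01, 7.58, 7.91 and 8.75 log2. The unadjusted level was thus higher in cycling cells of mice 1A and 1B and lower in those of 2A and 2B. For the 16 tested S phase genes the medians were 0.0217 with Mycn, 0.0727 with Igf2bp1 and 0.0645 with Lin28b, all 16 being above 0 with Lin28b and 1, Cdca7, a partner of Mycn. Without the other cell types the S phase median with Mycn was -0.0377, with 5 of 16 above 0, and 0 were partners, with Cdca7 at 0.1399 ± 0.103. The G2 and M phase median with Mycn was -0.123 in the same cells. The 18 tested T specification genes had 0 partners, with medians of 0.0293, 0.0177 and 0.0163. Markers of other cell types stood below 0 with Mycn, with medians of -0.108 for 17 NK/ILC genes (1 above 0) and -0.101 for 14 dendritic genes (1 above 0), and 0 partners in either list. With Lin28b those medians were 0.0281 and -0.0665, and with Igf2bp1 0.00118 and -0.0202. Macrophage genes had medians of -0.0650 with Mycn, -0.101 with Lin28b and -0.0408 with Igf2bp1.

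**Figure D5:**
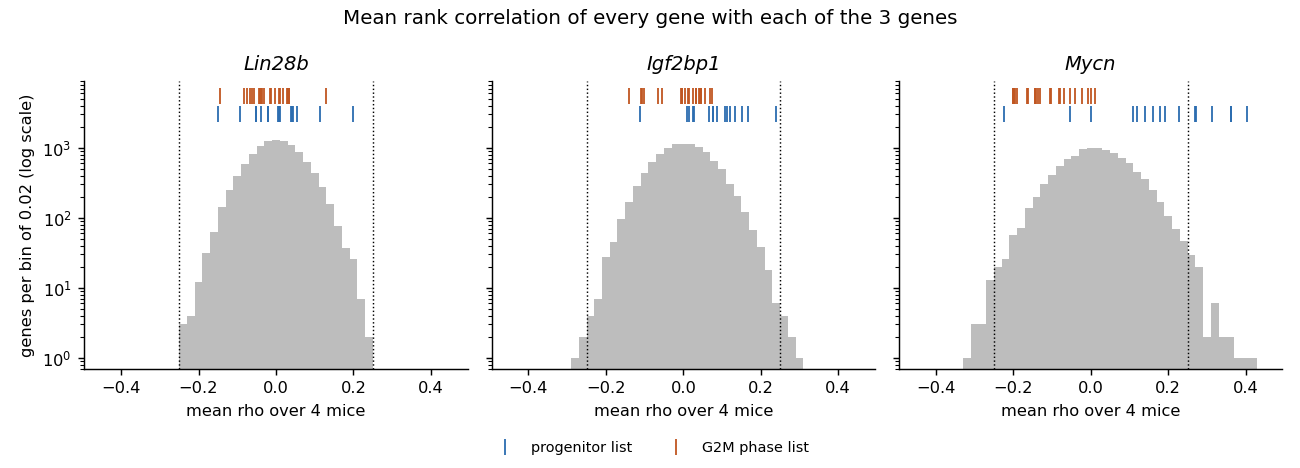
Number of genes (log scale) by mean rho over 4 mice with Lin28b, Igf2bp1 and Mycn in bins of 0.02, with dotted lines at -0.25 and 0.25 and ticks above for the tested genes of the progenitor and G2M phase lists. The progenitor ticks have a median of 0.185 with Mycn and of 0.00709 with Lin28b.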

How the data were processed

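Single cells were sorted into plates, reverse-transcribed with oligo-dT, amplified by PCR for 26 cycles and made into Nextera XT libraries, per the labels' protocols. The authors' deposited matrix holds normalized log2 expression that runs from -4.13 to 15.99; the submitters' processing notes list Salmon and GRCm38, with no version, and no source used here states the scaling, batch correction or filters. Of 300 labelled cells, 261 are in the matrix; the other 39 were not analysed here. Gene IDs were matched to GENCODE vM21 symbols (13578 matched). Read depth is unknown, so shares could not be thinned, and doublets were not called.

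The level at no reads was the repeated lowest value of a gene in a set, with a tolerance of 1e-06; 12053 genes had it in all 4 sets. A batch correction shifts this level, so levels between sets are less certain than detection. Partial Spearman correlations inside each mouse, on ranks, took detected genes and set as covariates; Fisher z was averaged over mice, for genes detected in at least 10% of cells. The calculation was tested on simulated data. Clusters came from the 2000 most variable genes without the 3, centred per set, with 20 principal components and Ward linkage (scikit-learn 1.9.0, scipy 1.17.1, Python 3.11.15); a cluster was named by at least 3 markers among its top 50 genes. No p-values are given, since cells are not replicates, the clusters were made from the same expression values, and an exact sign-flip test over 4 mice cannot go below a two-sided p of 0.125. Named genes are the 10 highest and 5 lowest of 1 sign in 4 mice for each of the 3 genes, plus the listed let-7, Myc network and IGF2BP genes; results of some of them are not reported here. The 3 genes and all gene lists were chosen with earlier results of these data known.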

Additional observations from a re-analysis of the deposited data

Results flagged for a closer look

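Of 66 values looked at over the 4 mice, 4 had a mouse far from the other 3, and chance alone gives about 1 in 20. All are rank correlations of single genes. The correlation of Mycn with Serpinb1a was 0.132 in mouse 1A, against 0.441 to 0.463 in the others. With Kcnn4, Mycn had a correlation of 0.252 in mouse 1B, against 0.382 to 0.406. With Sox4, the correlation of Mycn was 0.387 in mouse 2B, against 0.295 to 0.308. Lin28b and Gpr137b had a correlation of -0.313 in mouse 2B, against -0.217 to -0.2003. What sets these mice apart was not tested, and mice 1A and 1B lie mostly in 1 set each.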

How the results depend on the processing

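The class differences past 1 log2 unit kept their direction under the alternatives run. Without the other cell types 1 of the 20 negative partners of Mycn, Atp1b1, was no longer below 0 (0.00173). Of the values of single list medians and named genes, 768 stayed within 1 SD and 50 moved by more.

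At a clear level in place of any detection, the shares of Lin28b, Igf2bp1 and Mycn were 35.8, 58.2 and 72.1%, and the joint excess was 4.81 points for Lin28b and Mycn and 6.38 points for Igf2bp1 and Mycn. In detected cells only, the mean level was 4.70 log2 for Lin28b and 6.95 log2 for Mycn. Without the other cell types the mean level was 2.92 log2 for Lin28b and 7.64 log2 for Mycn, the share of Mycn 98.2% (92.99% without the first 8 wells of each set), and the joint excess of Igf2bp1 and Mycn 0.24 points.

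Partner counts changed most with the processing, and are given as the percent of genes tested (1 gene is about 0.0093%). With no covariates 0.288% of genes were positive and 0.00931% negative partners of Lin28b, 1.16% positive of Igf2bp1, and 6.72 and 0.865% of Mycn, and the rho of Lin28b and Mycn was 0.165. With the plate in place of the set Igf2bp1 had 0.102% positive and Mycn 0.335% negative partners. The deposited values gave 0.0161% positive partners of Lin28b and 1.15% of Mycn. Pearson correlation gave 0.00931% each way for Lin28b, 0.158% positive for Igf2bp1, and 1.53 and 0.912% for Mycn. Without the other cell types the shares were 0.0187 and 0.00935% for Lin28b, 0.0561% negative for Igf2bp1, and 0.168 and 0.0374% for Mycn. Without the first 8 wells they were 0.00928% each way for Lin28b, 0.0371% negative for Igf2bp1 and 0.111% negative for Mycn. Cell-cycle covariates gave 0.0279% positive partners of Igf2bp1, and genes detected in at least 25% of cells gave it 0.0111% negative ones. With the set as unit, an alternative chosen after seeing the data, there were 0.00931% negative partners of Lin28b, 0.0279% each way of Igf2bp1 and 0.447% negative of Mycn. A mark of 0.2 gave 0.1396 and 0.102%, 0.372 and 0.195%, and 1.89 and 0.856% partners of Lin28b, Igf2bp1 and Mycn, and a mark of 0.3 gave 0 and 0% for Igf2bp1 and 0.121 and 0.0186% for Mycn. Leaving out each mouse gave 0.0186 to 0.0837% positive and 0.00931 to 0.0465% negative partners of Lin28b, 0.102 to 0.288% and 0.0651 to 0.102% of Igf2bp1, and 0.465 to 1.28% and 0.298 to 0.409% of Mycn. The cause of these changes was not tested.

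The difference between the progenitor and cycling clusters and the other cell types, adjusted for detected genes after seeing the data, was 0.63 log2 for Lin28b, 1.30 log2 for Igf2bp1 and 3.80 log2 for Mycn, and 5.82 log2 for Mycn with Leiden clusters. That of Mycn between the S phase-led and cycling clusters and the progenitor-like cluster was -0.49 log2 with Leiden clusters and -1.14 log2 with the adjustment.

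No paired analysis was possible because no result comes from a test, the labels giving 1 group; class differences were taken inside each mouse and are a description. Levels of genes with reads in nearly every cell could not be aligned, read depth is unknown, and 59 other cells with 7 in mouse 2B limit the class differences.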

Other observations

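The 18 cells of the unnamed cluster lay between the classes. Lin28b was detected in 8 of them, Igf2bp1 in 13 and Mycn in 16, at a clear level in 5, 9 and 8 cells, and their median was 6619 detected genes. In the cells of mouse 2A, 23 of 35 in the second sequencing pool had Lin28b (65.7%; exact 95% interval 47.8 to 80.9%), against 13 of 29 in the first (44.8%; 26.4 to 64.3%), and the intervals overlap.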
